A study of Arabidopsis thaliana with 9 samples.

Results

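The nuclei described here came from a droplet-based (10x Chromium) single-nucleus library of whole Arabidopsis thaliana hypocotyls. They were chosen by 5 genes: AT2G35290, AT5G19740, NIK2, BZIP9 and AT1G72210. A nucleus was a member when its barcode held over 1200 and under 10000 counts and when at least 3 of those counts, from at least 2 of the 5 genes, fell in the set. By this rule 224 of 2081 nuclei were members, which is 10.8% (95% Clopper-Pearson interval 9.46 to 12.2), and 1857 other nuclei remained. These 5 genes chose the nuclei, so their levels are given as a description, and each was tested only where it had been left out of the choice. The cell type of the nuclei was not named beforehand, and the question was which tissue their other genes point to.

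The series held 9 libraries of hypocotyl nuclei. The 10x library and 6 VASA-seq plates (a full-length method on sorted single nuclei, 384 wells each) came from 4-week-old Col-0 plants with the reporters PXY:H4-GFP and SMXL5:H2B-RFP, which mark the cambium domain. On the 3 VASA cambium plates nuclei were sorted for GFP and/or RFP fluorescence, and on the 3 VASA all hypocotyl plates they were not. One droplet library each came from the strigolactone receptor mutant d14 (allele d14-1) and from wild type (WT, Col-0), both 19 days old, and all plants grew under 10 h of light and 14 h of dark. Between 181 and 313 nuclei passed on each plate, with medians of 4086 to 6059 counts, 822 passed in d14 and 684 in WT, and the 10x nuclei had a median of 1852 counts. The 10x library is a single library, as are d14 and WT, so no test was possible within or between them. Intervals given for them cover counting error only. One barcode sequence was shared by passing nuclei of the 10x and WT libraries, and barcode names were not compared for d14.

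As background, the hypocotyl thickens through the vascular cambium, whose stem cells give xylem towards the inside and phloem towards the outside. Phloem holds sieve elements, which lose their nucleus as they mature, companion cells that load sugar, and parenchyma that takes part in the transport of sugars and amino acids. BZIP9 is a basic leucine zipper transcription factor known from phloem. NIK2 is a leucine-rich repeat receptor kinase, AT1G72210 is a basic helix-loop-helix protein (bHLH96), AT5G19740 belongs to the M28 peptidases, and AT2G35290 (SAUR79) has no annotated function in RefSeq.

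NIK2 carried most of the rule. Levels are given as CPM, a gene's share of the summed counts of a set of nuclei. NIK2 stood at 1072 CPM in members against 150 CPM in other nuclei, and 201 members held it. AT1G72210 reached 651 against 56.1 CPM and was in 139 members, and AT5G19740 reached 315 against 32.4 CPM and was in 95. BZIP9 reached 417 against 17.8 CPM but lay in only 45 members (20.1%), and AT2G35290 reached 157 against 18.5 CPM in 39 members. Most members therefore carried NIK2 but not BZIP9. The commonest combinations were NIK2 with AT1G72210 (75 nuclei), NIK2 with AT5G19740 (38), all 3 of these (25) and NIK2 with BZIP9 (15). No member carried all 5 genes and 5 carried 4. In barcodes with 1 to 100 counts, which hold mostly free RNA, NIK2 stood at 319 CPM and BZIP9 at 96.8 CPM, both above the level in the non-member nuclei.

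The sum over the 5 genes was 3 in 64 members, 4 in 44 and had a median of 5. The tetraspanin gene TET5, which the rule did not read, stood at 108 CPM in the 64 nuclei just inside the threshold. It stood at 20.3 CPM in the 66 nuclei just outside with 2 counts from 2 genes, and at 6.05 CPM in the 1196 nuclei without any of the 5 genes. The amino acid transporter gene UMAMIT31 stood at 86.3, 47.4 and 29.5 CPM in these 3 sets, and at 672 CPM in the 116 members with 5 or more counts. The glucan synthase gene GSL04 and the Dof factor gene AT5G02460 were not higher at the threshold, at 28.8 and 14.4 CPM just inside and at 60.95 and 40.6 CPM just outside. Such levels over 64 and 66 nuclei rest on few counts. No interval was computed for these sets, so the order of these low values is uncertain. The 89 nuclei left out because their 3 or more counts came from 1 gene held TET5 at 60.8, UMAMIT31 at 122, GSL04 at 65.9 and AT5G02460 at 50.7 CPM, so for 3 of these 4 genes they stood above the nuclei just inside.

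Depth had a part in who was chosen. Members had a median of 1972 counts and 1311.5 genes against 1835 counts and 1212 genes in other nuclei. When each nucleus was thinned to 1200 counts before the rule was read, 115 nuclei remained members (5.53%, interval 4.58 to 6.60). At 1200 counts per nucleus the 224 members by deposited counts held a median of 896 genes and the 1857 other nuclei 880. The members' mitochondrial share was 0.04% and that of other nuclei 0.06%.

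How far the 5 genes went together was read by leaving out each in turn. For each gene, members were chosen again by the other 4, and the left-out gene was then compared. BZIP9 was 283 CPM in the 201 nuclei chosen without it and 36.9 CPM in the rest, a ratio of 7.67 (6.03 to 9.74). NIK2 was 969 against 227 CPM (ratio 4.28, 3.58 to 5.09), AT1G72210 had a ratio of 3.25 (2.59 to 4.03), AT5G19740 one of 3.0 (2.23 to 3.98) and AT2G35290 one of 2.26 (1.47 to 3.37). At 1200 counts per nucleus NIK2 and BZIP9 were found together in 32 of the 2081 nuclei, against 13.3 from the product of their shares, and NIK2 and AT1G72210 in 89 against 46.4. NIK2 and AT2G35290, however, met in 11 against 12.7. Over the 1588 nuclei of the 6 plates NIK2 was found with BZIP9 in 15 nuclei against 9.26 and with AT1G72210 in 32 against 19.9. There BZIP9 and AT1G72210 met in 1 against 1.83, and BZIP9 and AT2G35290 in 0 against 1.60. In d14 all 5 ratios lay above 1 with their intervals, led by BZIP9 at 12.4 (8.00 to 19.0). In WT the intervals for NIK2 (5.38, 2.90 to 9.17) and BZIP9 (4.37, 1.65 to 9.94) lay above 1, and those for the other 3 genes included 1. On the 6 plates, with members chosen on thinned counts, none of the 5 left-out genes passed edgeR's quasi-likelihood test (adjusted p of 0.721 to 0.883). Without NIK2 the rule found 0 members on cambium plate 1 and 2 or 3 on each of the others, so that test rested on 5 plates. A planned minimum of 5 members per plate was not applied, and no plate met it there. Without AT5G19740, all hypocotyl plates 1 and 3 had 3 and 4 members, also under that minimum. With members chosen on the deposited counts NIK2 (log2 change 0.81, adjusted p = 0.0024), AT5G19740 (0.75, adjusted p = 0.0052) and AT1G72210 (0.61, adjusted p = 0.0223) passed in edgeR, while BZIP9 (0.62, adjusted p = 0.481) and AT2G35290 (0.59, adjusted p = 0.181) did not. Members by the full 5-gene rule on deposited counts were also the deeper nuclei, with plate medians of 5016 to 8864.5 counts against 3713 to 5103.5 in other nuclei. The depth of the sets chosen by 4 genes was not read, and the part of depth in these differences was not tested.

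Several genes outside the rule were far higher in the 10x members. Of 14722 genes with at least 50 counts, 527 (3.58%) were at least 2-fold higher in members with an interval that excluded 1, and 1702 (11.6%) were at least 2-fold lower. TET5 led, with 109 counts in members and 52 in other nuclei, or 214 against 12.7 CPM (ratio 16.9, 12.0 to 24.0). It was seen in 28 members, and at 1200 counts per nucleus in 9.38% of members against 1.18% of other nuclei. GSL04, of the glucan synthase family that makes callose, stood at 244 against 21.7 CPM (ratio 11.2, 8.49 to 14.9) in 25 members. UMAMIT31 stood at 423 against 40.0 CPM (ratio 10.6, 8.59 to 13.0) in 54 members. Each of these 3 genes was thus strong in a minority of the members.

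Other leading genes lay in 51 to 98 members each. GH9B13, a glycosyl hydrolase of the endoglucanase family, was at 1037 against 249 CPM (ratio 4.16, 3.74 to 4.62) in 80 members, and free RNA held it at 560 CPM. ABCB9, an ABC transporter, was at 427 against 128 CPM (ratio 3.33, 2.83 to 3.91) in 98 members. AT1G09750, an aspartyl protease, was at 527 against 114 CPM (ratio 4.64, 3.98 to 5.40) in 62 members. UMAMIT30, another amino acid transporter gene that lies 9520 bases from UMAMIT31 on chromosome 4, was at 586 against 120 CPM (ratio 4.90, 4.23 to 5.68), also in 62. The zinc finger gene NTT was at 167 against 40.0 CPM (ratio 4.18, 3.18 to 5.46) in 64, and AT1G10640, a pectin lyase-like gene, at 384 against 80.0 CPM (ratio 4.79, 3.99 to 5.74) in 51.

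Among the remaining leading genes were AT5G02460, a Dof zinc finger factor, at 207 against 20.7 CPM (ratio 9.96, 7.41 to 13.4), and PS2, a pyrophosphatase, at 173 against 17.3 CPM (ratio 9.99, 7.23 to 13.9). TPPH, a trehalose-phosphate phosphatase, was at 61.0 against 6.59 CPM (ratio 9.26, 5.35 to 16.1) from only 7 members. AT4G23420, annotated as an NAD(P)-binding protein, was at 205 against 25.1 CPM, but its gene starts 6 bases after TET5 on the same strand, so reads of these neighbours may not be fully separable. The phloem protein gene PP2-B1 stood at 234 against 46.1 CPM in 22 members.

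**Figure D1:**
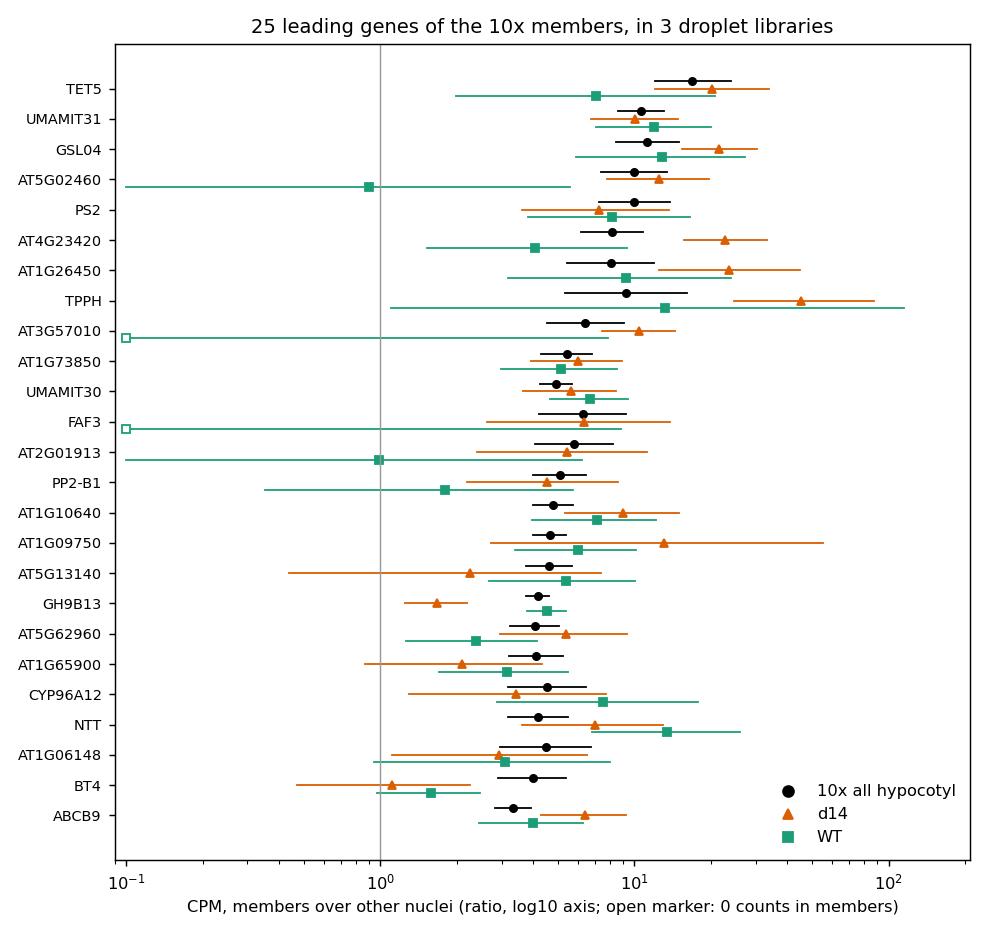
Ratio of summed CPM, members over other nuclei, on a log10 axis for the 25 leading genes of the 10x members, in the 10x, d14 and WT droplet libraries. Bars are 95% intervals for counting error, open markers stand for 0 counts in members, and TET5 stands at 16.9 in the 10x library, 20.2 in d14 and 7.07 in WT.

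The genes lowest in members were of several kinds. The secondary wall cellulose synthase gene IRX1, the suberin-related gene KCS2, the zinc transporter gene ZIP3 and the B3-type gene ABS2 had 0 counts in members, which with a floor of 3 counts over the set puts them at least 10.1-, 10.7-, 10.5- and 12.4-fold lower. The boric acid channel gene NIP5;1 stood at 47.2 CPM in members against 645 CPM, the glutaredoxin gene GRXS13 at 9.84 against 259 CPM, the glucosidase gene DIN2 at 11.8 against 229 CPM, the lipid transfer gene LTP at 39.3 against 539 CPM, and the phytosulfokine precursor gene PSK2 at 9.84 against 186 CPM.

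The same rule found fewer such nuclei in the younger plants. In d14 37 of 822 nuclei (4.50%, 3.19 to 6.15) were members and in WT 35 of 684 (5.12%, 3.59 to 7.04). At 1200 counts per nucleus these shares were 1.95% (1.12 to 3.14) in d14 and 1.75% (0.910 to 3.04) in WT, and the intervals of d14 and WT overlapped. Age, reporters and library differ together between these libraries and the 10x one and cannot be told apart.

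The leading genes recurred there. All 25 were higher in d14 members than in other d14 nuclei, 22 of them with an interval above 1. Of the 14573 genes counted in the 10x library and listed there, 44.1% were higher in d14 members and 5.46% had an interval above 1. In WT members 21 of the 25 were higher, 18 with an interval above 1, where the shares of all genes were 42.9% and 5.22%. TET5 stood at 327 against 16.2 CPM in d14 and at 61.3 against 8.67 CPM in WT. UMAMIT31 stood at 406 against 40.4 CPM in d14 and at 319 against 26.6 CPM in WT. GSL04 stood at 763 against 35.4 CPM in d14 and at 159 against 12.4 CPM in WT. GH9B13 reached 565 against 339 CPM in d14, a ratio of 1.67, and 1901 against 420 CPM in WT, a ratio of 4.52. AT5G02460 was the clearest exception, at 327 against 26.3 CPM in d14 but 12.3 against 13.6 CPM in WT. Of the 10 lowest genes, 9 were lower in d14 members (3 with an interval below 1) and all 10 in WT members (7 with an interval below 1). Of all genes 55.6% were lower in d14 members (3.32% with an interval below 1) and 56.8% in WT members (3.35%). NIP5;1 was at 496 against 530 CPM in d14 and at 0 against 455 CPM in WT.

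On the plates, which the rule did not read, the comparison was made over 6 plates. Per the paper's methods, a single collection of hypocotyls gave the 3 cambium plates and another gave the 3 all hypocotyl plates. The plates of a gate are therefore not separate plant pools, and gate and pool cannot be told apart. With the rule read on thinned counts it found 9, 11 and 13 members on VASA cambium plates 1 to 3 and 8, 8 and 7 on VASA all hypocotyl plates 1 to 3. The member share was 3.77% ± 0.81 on cambium plates and 3.35% ± 0.58 on all hypocotyl plates (SD, n = 3 each). The ranges overlapped, and the difference of 0.418 percentage points was not separated from the spread between plates (2-sided exact permutation test, p = 0.40, with 0.10 the smallest p possible). With the deposited counts the shares were 31.5% ± 6.56 and 24.9% ± 5.21 (exact permutation p = 0.20).

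Summed per plate, 10753 genes were tested in edgeR, of which 1.94% passed at an adjusted p under 0.05, 26 (0.242%) higher and 183 (1.7%) lower in members. Of the 25 genes that led in the 10x library 19 could be tested, 18 of these had a higher level in members by the fitted change, and 5 (26.3%) passed. GSL04 ranged from 23.4 to 901 CPM in members (median 133) and from 18.8 to 142 CPM in other nuclei (median 65.1). Its log2 change was 1.61 ± 0.35 (SE, edgeR adjusted p = 0.0011), but it was higher on only 4 of 6 plates. Its call was lost without cambium plate 2, cambium plate 3 or all hypocotyl plate 2 (edgeR adjusted p of 0.0748 to 0.148) and in DESeq2 (adjusted p = 0.318). UMAMIT31 ranged from 0 to 500 CPM (median 199) in members and from 35.2 to 110 CPM (median 66.3) in other nuclei, again higher on 4 of 6 plates (log2 change 1.38 ± 0.35, edgeR adjusted p = 0.0115). Its call was lost without cambium plate 1, cambium plate 2, all hypocotyl plate 1 or all hypocotyl plate 3 (edgeR adjusted p of 0.0503 to 0.625, with a change of 0.76 without cambium plate 2) and in DESeq2 (adjusted p = 0.566). With so few members per plate these genes fell in a few nuclei, and the groups overlapped. AT1G10640, GH9B13 and ABCB9 also passed, with log2 changes of 0.99 ± 0.28, 0.81 ± 0.23 and 0.89 ± 0.25 and edgeR adjusted p of 0.0233, 0.0253 and 0.0281. Each of these 3 calls was lost without cambium plate 2, cambium plate 3 or all hypocotyl plate 1 and in DESeq2. Without cambium plate 2 the change of GH9B13 was 0.46 (edgeR adjusted p = 0.641) and without all hypocotyl plate 2 it was 0.51 (edgeR adjusted p = 0.55), and the call of AT1G10640 was also lost without cambium plate 1 or all hypocotyl plate 2. TET5 ranged from 0 to 477 CPM in members and from 5.75 to 69.2 CPM in other nuclei and did not pass (1.58 ± 0.51, edgeR adjusted p = 0.0836).

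The genes with the largest increase on the plates were partly others. HSFC1, a heat stress factor, ranged from 156 to 726 CPM (median 271) in members and from 66.4 to 140 CPM (median 108) in other nuclei, without overlap (log2 change 1.36 ± 0.29, edgeR adjusted p = 7.99e-04). BOP2, a BTB-ankyrin protein of lateral organ boundaries, ranged from 91.4 to 470 CPM against 67.0 to 86.6 CPM, and Lhca5, a light-harvesting protein, from 48.2 to 97.4 against 13.5 to 25.5 CPM, both higher on 6 of 6 plates without overlap. Lhca5 passed narrowly (edgeR adjusted p = 0.049) and no longer did without any 1 of the 6 plates. The call of BOP2 was lost without cambium plate 2, cambium plate 3 or all hypocotyl plate 1 (edgeR adjusted p of 0.0921 to 0.448) and in DESeq2 (adjusted p = 0.0651), and that of HSFC1 without all hypocotyl plate 1 (edgeR adjusted p = 0.075). AT3G02500, WRKY40, AT1G48100, FAD3 and GSTF12 completed the group, and each of these 5 calls was lost without any 1 of 3 or 4 plates and in DESeq2. Without cambium plate 3 the changes of FAD3 and GSTF12 were 0.91 and 0.96, and without all hypocotyl plate 2 that of AT1G48100 was 0.84. With a second random draw of the thinned counts, chosen after seeing the data, the log2 change of HSFC1 was −0.24, that of FAD3 −1.68, that of WRKY40 0.091 and that of BOP2 0.52.

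Lower genes varied in how far their calls held. The laccase gene LAC7 had 0 counts in the members of all 6 plates against a mean of 119 CPM in other nuclei, at least 12.2-fold lower over the 6 member sums. The nitrate transporter gene NRT1.1 was at least 5.81-fold lower. The wall-modifying genes XTH24 and XTH9 had 1 count each in members, against 678 and 515 counts in other nuclei, and passed. The call of XTH9 was lost in DESeq2 (adjusted p = 0.0604). Those of AK3, AT1G36060 and AT5G13250, also among the 10 largest decreases, were lost in DESeq2 too (adjusted p of 0.0583 to 0.0653). With the second draw the calls of AK3 and AT1G36060 were lost as well (edgeR adjusted p of 0.0659 and 0.0975). NIP5;1 (edgeR adjusted p = 0.0381) and DIN2 (−2.28, edgeR adjusted p = 0.0176) were the 2 of the 10 lowest 10x genes that could be tested, and both were lower. NIP5;1 had 1 count in members, on cambium plate 1, and 350 in other nuclei, and its call was lost without any 1 of the other 5 plates. That of DIN2 was lost without cambium plate 1, all hypocotyl plate 1 or all hypocotyl plate 2 (edgeR adjusted p of 0.0717 to 0.129) and in DESeq2 (adjusted p = 0.26), and its change was −3.47 without cambium plate 2. That of LAC7 held throughout.

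With the rule read on deposited counts, 12460 genes were tested and 11.1% passed, of which 769 (6.17%) were higher and 617 (4.95%) lower in members. Then 21 of the 25 leading 10x genes were tested, all 21 with a higher fitted level and 19 past the test. UMAMIT31 ranged from 95.6 to 235 CPM (median 161) in members and from 9.51 to 50.7 CPM (median 24.99) in other nuclei, without overlap (log2 change 2.72 ± 0.23). UMAMIT30 ranged from 171 to 322 CPM (median 233) against 41.99 to 83.9 CPM (median 55.7), also without overlap (2.00 ± 0.14). AT1G73850 ranged from 58.7 to 132 CPM (median 84.1) against 11.9 to 35.0 CPM (median 29.8; 1.68 ± 0.21). TET5 ranged from 3.64 to 181 CPM (median 37.9) against 1.59 to 22.9 CPM (median 6.59) and was higher on 5 of 6 plates (2.79 ± 0.37). These members were the deeper nuclei, as above.

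The reporters gave a mixed picture. H4GFP, read from the PXY promoter, stood at 53.1 CPM in 10x members against 81.0 CPM in other nuclei (27 and 332 counts, ratio 0.66, 0.43 to 0.97). H2BRFP, read from the SMXL5 promoter, stood at 82.6 against 40.3 CPM (42 and 165 counts, ratio 2.05, 1.43 to 2.90). On the plates H4GFP was lower in members on 6 of 6 plates under both readings of the rule, with a log2 change of −1.23 ± 0.20 (edgeR adjusted p = 8.17e-04) for members by deposited counts and −1.46 ± 0.51 (edgeR adjusted p = 0.147) for members by thinned counts. H2BRFP was higher on 6 of 6 plates in members by deposited counts (0.62 ± 0.17, edgeR adjusted p = 0.0273) and lower on 5 of 6 in members by thinned counts (−0.57 ± 0.50, edgeR adjusted p = 0.809).

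The members also differed among themselves, and were divided here by whether they held BZIP9. No other rule gene was used to divide them, and lacking BZIP9 means no count of it at this depth. The sets also differ in the other rule genes, because members without BZIP9 qualified by those genes alone. Without BZIP9 the commonest combination was NIK2 with AT1G72210 (75 nuclei), and among members with BZIP9 it was NIK2 with BZIP9 (15). The part of the other rule genes in the contrasts below was not tested. The 45 members that carried BZIP9 were compared with the 179 that did not, a split made after the 10x values had been seen. Depth was similar, with medians of 1843 and 2020 counts. Among 6722 genes that reached 20 counts in these 224 nuclei, 378 (5.62%) were at least 2-fold higher in members with BZIP9 and 400 (5.95%) in members without it.

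TET5 stood at 1093 CPM in members with BZIP9 (21 of 45 nuclei) and at 24 CPM in members without (7 of 179), close to the 13 CPM of non-members. GSL04 stood at 1247 CPM in 19 nuclei against 26 CPM in 6 nuclei (ratio 47.4, 25.5 to 97.6), with 22 CPM in non-members. UMAMIT31 stood at 1722 CPM in 31 nuclei against 141 CPM in 23 (ratio 12.2, 8.98 to 16.7). AT5G02460 stood at 1037 against 26 CPM and PP2-B1 at 1203 against 24 CPM. TPPH and TPPJ, both trehalose-phosphate phosphatase genes, stood at 342 and 265 CPM with BZIP9 and at 0 counts without, hence at least 47.6- and 36.9-fold higher. The GRAM-domain gene AT5G23370 (298 CPM, at least 41.5-fold) and AT3G14780, annotated as callose synthase (188 CPM, at least 26.1-fold), were also at 0 without BZIP9. The leading genes TET5, GSL04 and AT5G02460 of the whole set thus lay mostly in the 45 members that held BZIP9.

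Members without BZIP9 led in another set. AT1G09750 stood at 66 CPM in members with BZIP9 (3 nuclei) and at 627 CPM in members without (59 nuclei), against 114 CPM in non-members. AT1G10640 stood at 66 against 452 CPM, GH9B13 at 188 against 1221 CPM, the light-harvesting gene LHCB2.3 at 55 against 354 CPM, and DMR6, an oxygenase, at 243 against 1010 CPM. The terpene synthase gene TPS12 stood at 66 against 500 CPM and the receptor-like protein gene RLP19 at 33 against 347 CPM, but non-members held these at 855 and 351 CPM. The anthocyanin gene LDOX had 0 counts with BZIP9 and 175 CPM without, all from 6 nuclei.

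The division recurred on the plates. There 21, 13 and 13 members by deposited counts on cambium plates 1 to 3 and 5, 6 and 8 on all hypocotyl plates 1 to 3 carried BZIP9, and 45 to 97 members per plate did not. Median depth was 4920 to 12001 counts with BZIP9 and 5043.5 to 8864.5 without. Of 4856 genes tested in edgeR 2.35% passed, and 38 (0.783%) were higher and 76 (1.57%) lower with BZIP9. Of the 15 genes that led the BZIP9 side in the 10x library only 3 were abundant enough to test, and all 3 passed in the same direction. Of the 15 that led the other side 11 were tested, all 11 had the same direction and 7 passed.

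GSL04 ranged from 148 to 2463 CPM (median 663) in members with BZIP9 and from 8.53 to 48.3 CPM (median 29.7) in members without, higher on 6 of 6 plates with no overlap (log2 change 4.85 ± 0.43, edgeR adjusted p = 3.43e-06). UMAMIT31 ranged from 351 to 1252 CPM (median 638) against 39.1 to 109 CPM (median 53.0), also without overlap (3.48 ± 0.32, edgeR adjusted p = 5.2e-06). CYP79B3, of indole glucosinolate synthesis, was higher on 5 of 6 plates (2.11 ± 0.49, edgeR adjusted p = 0.0254), a call lost without any 1 of the 3 cambium plates or all hypocotyl plate 2. TET5 was not abundant enough to be tested, but was higher on 6 of 6 plates, at 9.56 to 1451 CPM (median 124) against 2.78 to 30.7 CPM (median 11.1). AT5G02460, likewise untested, ranged from 18.5 to 836 CPM against 1.39 to 12.1 CPM without overlap. The plates thus showed the same sharp contrast as the 10x nuclei for these genes, with a wide spread between plates on the BZIP9 side.

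The plates added genes that had not led in the 10x library. GSL11, another glucan synthase-like gene, ranged from 314 to 946 CPM (median 525) with BZIP9 and from 18.2 to 58.3 CPM (median 33.8) without (3.91 ± 0.34, edgeR adjusted p = 2.98e-06). AT5G42720, a glycosyl hydrolase of family 17, ranged from 129 to 770 CPM (median 354) against 11.7 to 56.3 CPM (median 40.5; 3.42 ± 0.29, edgeR adjusted p = 2.2e-06). PDLP7, a plasmodesmata-located protein, ranged from 47.8 to 198 CPM (median 101) against 0 to 10.2 CPM (median 5.08; 4.26 ± 0.54, edgeR adjusted p = 2.29e-04). None of these 3 genes overlapped between the sets. FLA8, a fasciclin-like arabinogalactan protein, was higher on 6 of 6 plates (2.48 ± 0.37), and HB-8, a homeodomain gene of the cambium and procambium, was at 287 to 517 CPM against 107 to 289 CPM (0.98 ± 0.23, edgeR adjusted p = 0.0272), with the call lost without the same 4 plates.

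On the other side AT1G09750 ranged from 21.4 to 91.5 CPM (median 45.7) with BZIP9 and from 474 to 782 CPM (median 665) without, against 171 to 231 CPM in non-members (log2 change −3.61 ± 0.29, edgeR adjusted p = 1.94e-06). AT1G10640 ranged from 0 to 71.2 CPM (median 30.1) against 228 to 431 CPM (median 357; −3.24 ± 0.35, edgeR adjusted p = 4.2e-05), and GH9B13 from 23.7 to 503 CPM (median 297) against 777 to 1061 CPM (median 933; −1.95 ± 0.37, edgeR adjusted p = 0.0063). None of the 3 overlapped between the sets. RLP19 (−4.12), LHCB2.3 (−3.74), TPS12 (−2.26) and CYP81H1 (−1.63) passed too, but the call of CYP81H1 was lost without any 1 plate other than cambium plate 3 (edgeR adjusted p of 0.0545 to 0.142) and in DESeq2 (adjusted p = 0.0637). The thaumatin-like gene AT4G36010 (−5.10), the pectin lyase-like gene AT1G60590 (−3.94), the receptor-like kinase gene AT3G28040 (−3.32), the Ole e 1 family gene AT5G13140 (−3.24), the aquaporin gene PIP2E (−3.20) and LOL1 (−3.12) were the others with the largest differences.

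**Figure D2:**
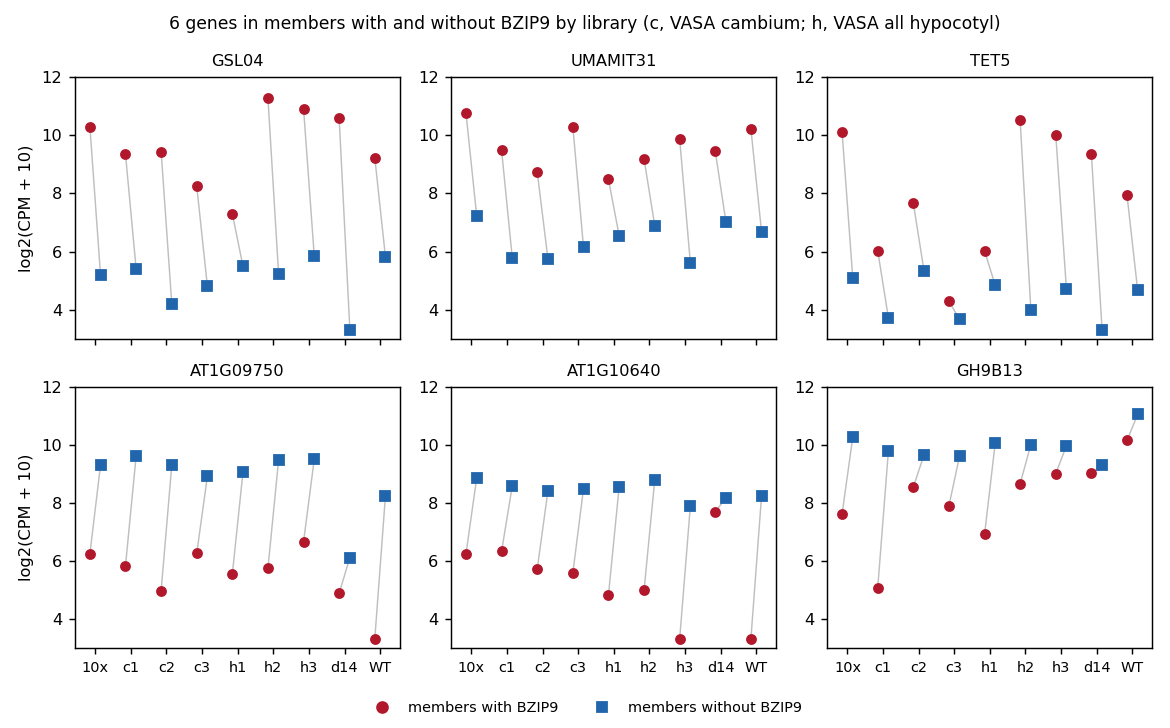
Level of 6 genes, as log2(CPM + 10), in members with BZIP9 (red circles) and members without BZIP9 (blue squares) of each library, joined by a line. GSL04, UMAMIT31 and TET5 were higher with BZIP9 in all 9 libraries, and AT1G09750, AT1G10640 and GH9B13 were lower in all 9.

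In d14, 17 members carried BZIP9 and 20 did not, and GSL04 stood at 1522 CPM against 0, TET5 at 652 CPM against 0 and UMAMIT31 at 692 against 119 CPM. In WT, 9 carried BZIP9 and 26 did not, with GSL04 at 593 against 46 CPM, TET5 at 237 against 15 CPM and UMAMIT31 at 1186 against 93 CPM. Of the 15 genes of the BZIP9 side, all 15 had the same direction in d14 and 12 in WT, where 44% and 40.4% of 6695 genes were higher with BZIP9. Of the 15 of the other side 7 did in d14 and 11 in WT, where 53.2% and 55.4% of these genes were higher without it. LDOX and the glutathione transferase gene GSTF12 turned round in WT, at 1897 against 170 CPM and 1482 against 619 CPM.

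BZIP9 itself was not confined to members. In the 10x library 37 non-members carried it, and they held TET5 at 224 CPM, GSL04 at 359, AT4G23420 at 348 and UMAMIT31 at 336 CPM, between members with BZIP9 and other non-members for each of these 4 genes.

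The cell type lists were read with this division in view. Each list was summed over its genes with the rule genes removed, and set against the 1857 non-members. In members with BZIP9 a published leaf vein list for phloem parenchyma (PP1) was 6.81-fold higher (5.67 to 8.12), with 10 of its 14 measured genes past 2-fold against 4.37% of all 19585 genes with 10 or more counts, and a root tip phloem list 5.69-fold higher (4.77 to 6.74), with 9 of 15. A textbook list of early phloem and sieve element genes was 5.45-fold higher (4.71 to 6.29), with 7 of 12 past 2-fold. Its median log2 ratio was 1.51 against −0.18 over all genes. BZIP9 is itself on the PP1 and root tip phloem lists and was removed, and TPPH, AT5G23370 and AT3G14780 named above are members of these lists. AT5G02460, a leading gene of these same nuclei, is on the early phloem list and was kept in its sum. The list ratios are therefore not separate from the leading genes.

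Within the early phloem list the levels were uneven. AT5G02460, with levels given above, was far higher with BZIP9 than without. OPS, a polarly placed protein of early sieve element cells, stood at 199 CPM with BZIP9 and 65 CPM without, the phosphatase gene CVP2 at 199 and 89, and the Dof factor gene DOF2.4 at 464 and 132 CPM. NAC045 and NAC086, which act in the removal of the sieve element nucleus, SEOR1, a structural protein of mature sieve elements, CalS7, the callose synthase of sieve plates, and BRX, a regulator of protophloem, had 0 counts with BZIP9. At this depth 0 counts allow up to 33.1 CPM, and non-members held these 5 genes at 0.73 to 20.7 CPM, so no difference was detectable. On the plates OPS ranged from 71.2 to 201 CPM with BZIP9 and from 46.0 to 97.2 CPM without, and did not pass (0.96 ± 0.30, edgeR adjusted p = 0.129).

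For mature phloem the counts were few. A companion cell list was 1.41-fold the level of non-members (0.87 to 2.18), an interval that included 1, and SUC2, the sucrose carrier of companion cells, stood at 44 CPM from 1 nucleus against 16.6 CPM in non-members. The sucrose exporter genes SWEET11 and SWEET12 of phloem parenchyma had 0 counts with BZIP9 and 2 and 5 counts in all non-members. The textbook phloem parenchyma list, which holds many glucosinolate genes, was 0.44-fold (0.34 to 0.57). The PP1 list and this textbook list of phloem parenchyma therefore differed in direction.

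Members without BZIP9 gave no such profile. Their PP1 ratio was 1.07 (0.86 to 1.31), root tip phloem 0.71, early phloem 1.5 (1.32 to 1.71, 2 of 12 past 2-fold higher and 1 lower, against 3.46% and 9.19% of all genes) and companion cell 0.44. The highest of the textbook lists was photosynthesis at 1.74. Of the genes leading this side, AT5G13140 is on a published root tip cortex list and GH9B13 on a published cortex trajectory list. The sums of the cortex lists are not given here, so a cortex profile was not assessed. Both sets were low for vessel genes (0.04 with BZIP9 and 0.11 without), and periderm genes (0.09 and 0.19), and cambium genes were at 1.27 with BZIP9 and 1.29 without. KNAT1, a homeobox gene, stood at 1026 CPM with BZIP9, 996 without and 429 in non-members, and ANT, an AP2 factor of growing tissue, at 342, 347 and 156 CPM. The cambium stem cell genes PXY and WOX4 stood at 44 and 166 CPM with BZIP9, 103 and 266 without, and 126 and 352 CPM in non-members.

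**Figure D3:**
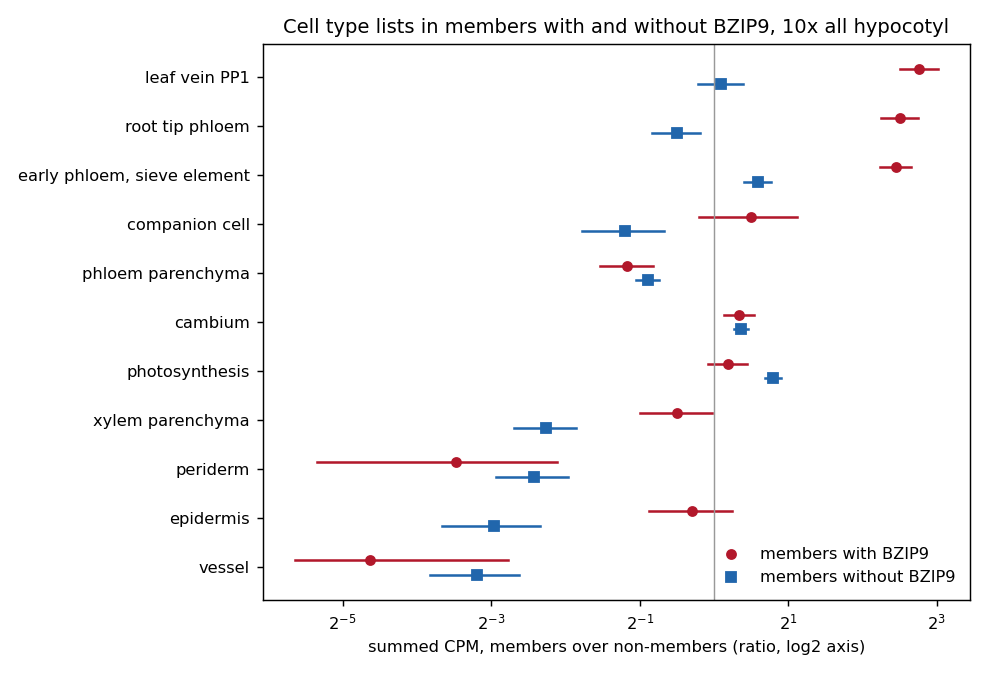
Summed CPM of 11 cell type lists in 10x members with BZIP9 (red circles) and without BZIP9 (blue squares) over that in non-members, on a log2 axis with 95% intervals for counting error. PP1, root tip phloem and early phloem stood at 6.81, 5.69 and 5.45 with BZIP9 and at 1.07, 0.71 and 1.5 without it.

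Over all 224 members the lists ran between the 2 sets. Early phloem was 2.21-fold (1.99 to 2.44, 3 of 12 genes past 2-fold higher and 2 lower, against 3.44% and 9.67% of all genes with 10 or more counts), PP1 2.09-fold (1.81 to 2.41, 4 of 14 higher), root tip phloem 1.59-fold (4 of 16 higher), cambium 1.28-fold (3 of 9 higher) and photosynthesis 1.63-fold (0 of 5). Vessel was 0.10-fold, periderm 0.17, epidermis 0.25, xylem parenchyma 0.30, phloem parenchyma 0.52 and companion cell 0.61. A list of developing phloem that the study drew from this same library was 2.42-fold (15 of 18 higher), and that of its unnamed cluster unknown #1 was 1.86-fold (10 of 20). Both were chosen on these nuclei and are not independent. The rule genes NIK2 and AT1G72210 are themselves on the study's developing phloem list and were removed from it before summing. In d14 the PP1 list was 9.35-fold (7.48 to 11.6) and early phloem 2.20-fold in members. In WT they were 3.40-fold (2.22 to 5.02) and 1.77-fold.

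On the plates few list genes passed. Among members by thinned counts PXY was lower on 6 of 6 plates, at 36.1 to 156 CPM in members against 184 to 302 CPM (−1.64 ± 0.34, edgeR adjusted p = 4.1e-04), and WOX4 (−2.87), HB-8 (−1.13) and SUC2 (−3.41) were lower as well. The calls of these 3 were lost in DESeq2 (adjusted p of 0.0741 to 0.2), that of HB-8 also without cambium plate 2 or all hypocotyl plate 2 (edgeR adjusted p of 0.111 and 0.0565), and those of WOX4 (−1.10) and SUC2 (−2.45) with the second draw. WOX4 was at −4.48 without all hypocotyl plate 3. In all, 3 of 8 tested cambium genes, 2 of 5 companion cell genes and 3 of 4 phloem parenchyma genes were lower, against 1.7% of all genes. None of 7 early phloem genes and none of 4 PP1 genes passed in either direction, and with 0.242% of all genes passing as higher nothing can be read from these small lists. Among members by deposited counts KNAT1 (0.76) and ANT (0.42) were higher and PXY (−1.30), HB-8 (−0.84) and WOX4 (−0.73) lower, 4 of 5 companion cell genes were lower and 4 of 5 photosynthesis genes higher.

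Clustering of the 10x nuclei with the 5 rule genes left out placed the members in several clusters rather than one. Only 1 of the 5 was among the variable genes that the clustering reads, so leaving them out removed 1 gene and kept 1999. Of 18 clusters, 3 held 154 of the 224 members (68.8%, 62.2 to 74.8). Cluster 6, led by UMAMIT31, AT1G73850 and FAF3, held 55 members among its 132 nuclei (41.7%), 14 of them with BZIP9. Cluster 2, led by AT1G09750, LOL1, AT1G60590 and AT1G10640, held 53 among 191 (27.7%), none with BZIP9. Cluster 0, led by DOF2.4 and GSL04 with ANT among its top 10 genes, held 46 among 263 (17.5%), 20 of them with BZIP9. Clusters 0 and 6 thus also held 26 and 41 members without BZIP9. The cell type lists were also summed over all nuclei of a cluster and set against the remaining nuclei. The highest list was early phloem in cluster 0 (5.85-fold) and photosynthesis in cluster 6 (1.56-fold). In cluster 2 it was photosynthesis (2.48-fold), followed by root tip epidermis (1.85-fold). The clusters were drawn on these same nuclei, so these values are a description. A further 22 lay in cluster 5, where the anthocyanin genes DFR, LDOX and GSTF12 were among the leading genes. At a finer resolution a cluster of 122 nuclei, led by AT5G02460, GSL04 and TET5, held 35 members, and 20 of these carried BZIP9.

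**Figure D4:**
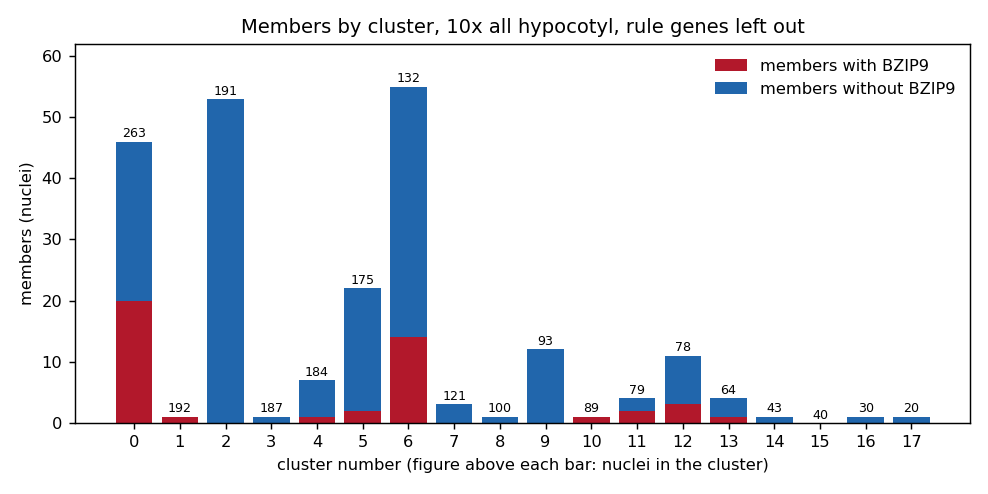
Number of members in each of 18 clusters of the 10x nuclei, with the number of nuclei in the cluster above each bar. Members with BZIP9 (red) lay mainly in clusters 0 (20 nuclei) and 6 (14 nuclei), and the 53 members of cluster 2 all lacked BZIP9 (blue).

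The promoters of BZIP9 and of 3 genes that followed it in both kinds of library are shown, since basic leucine zipper factors bind sites with an ACGT core. Each is 300 bases from RefSeq (TAIR10.1), from 250 bases before to 50 after the gene start, on the plus strand, at chr5:8514950-8515249, chr4:12223703-12224002, chr4:596147-596446 and chr3:4892160-4892459 in that order. ACGT, which reads the same on both strands, is in capitals.
BZIP9: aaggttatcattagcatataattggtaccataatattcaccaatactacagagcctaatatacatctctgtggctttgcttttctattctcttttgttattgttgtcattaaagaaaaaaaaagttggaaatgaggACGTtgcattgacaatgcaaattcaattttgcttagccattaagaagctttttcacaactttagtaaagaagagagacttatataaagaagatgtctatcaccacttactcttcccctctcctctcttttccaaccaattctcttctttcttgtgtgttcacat
TET5: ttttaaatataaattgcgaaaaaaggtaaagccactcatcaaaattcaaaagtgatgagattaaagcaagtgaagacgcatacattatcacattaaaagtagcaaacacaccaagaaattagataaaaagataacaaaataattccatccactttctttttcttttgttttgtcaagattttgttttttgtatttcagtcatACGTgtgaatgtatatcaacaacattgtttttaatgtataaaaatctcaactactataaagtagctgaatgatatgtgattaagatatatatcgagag
UMAMIT31: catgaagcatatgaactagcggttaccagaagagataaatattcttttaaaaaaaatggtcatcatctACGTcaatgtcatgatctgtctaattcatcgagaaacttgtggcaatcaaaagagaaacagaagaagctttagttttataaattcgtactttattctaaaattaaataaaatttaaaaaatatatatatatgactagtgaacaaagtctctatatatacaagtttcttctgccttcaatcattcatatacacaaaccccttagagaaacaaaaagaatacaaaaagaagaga
GSL04: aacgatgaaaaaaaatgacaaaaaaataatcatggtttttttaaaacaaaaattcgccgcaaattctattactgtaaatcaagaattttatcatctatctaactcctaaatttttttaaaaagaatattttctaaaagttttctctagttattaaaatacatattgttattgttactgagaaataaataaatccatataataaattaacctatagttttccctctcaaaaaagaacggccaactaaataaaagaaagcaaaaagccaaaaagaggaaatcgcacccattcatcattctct
The first match lay 114 bases before the start in BZIP9, 48 before it in TET5 and 182 before it in UMAMIT31, and GSL04 had none in this window. ACGT occurred in 10 of the 15 promoters of the genes leading with BZIP9, in 4 of 13 of those leading without it and in 49.9% of 27443 promoters. The longer CACGTG, which contains it, occurred in 2 of 15, 2 of 13 and 7.68%. A match in a window describes its letters only.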

How the data were processed

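The deposited values of every library were raw whole-number counts per gene (unique molecules in the droplet libraries, unique fragments on the plates). Per the labels and methods, the authors counted with STAR 2.7.8a, introns included, against TAIR10 (10x and VASA-seq) and with Cell Ranger 6.0.1 (d14 and WT), with no further normalization before deposit. The d14 and WT tables listed no organelle genes.

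Nuclei were kept over 1200 and under 10000 counts (10x), over 1200 and under 15000 (plates) and over 1500 and under 15000 (d14 and WT). The study's fluorescence-based filters were not applied. A mitochondrial limit of 20% removed 0 nuclei. The 10x library held 21650313 counts in all. Scrublet (scanpy 1.11.5) called 1 nucleus with its automatic threshold and did not separate doublets, so none were removed, and 11 members lay among the 112 nuclei with the highest scores.

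Members were found on deposited counts and, on the plates, on counts drawn at random to 1200 per nucleus, after which all counts of the chosen nuclei were summed. Ratios of summed CPM carry 95% exact conditional binomial intervals (scipy 1.17.1). Plate sums were tested in edgeR 4.0.16 (R 4.3.3) with TMM, filterByExpr and plate as block, at a Benjamini-Hochberg adjusted p under 0.05 over all genes. DESeq2 1.42.0 was an alternative. The 10x nuclei were clustered in Seurat 5.3.0 (resolution 1.2, and 2.0 as the alternative). The edgeR steps were tested on simulated counts.

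Genes named are the 5 of the rule, the 25 with the highest lower bound of the 10x ratio (30 or more counts in members), the 10 with the lowest upper bound (100 or more counts in other nuclei), the 10 largest plate changes per direction averaging 20 CPM or more, the reporters and genes of the textbook lists. Organelle genes were left out. For the BZIP9 division they are the 15 leading genes per side and the 10 largest plate changes. AT3G02500, AT1G73850 and the other locus codes are genes for which RefSeq gives no symbol. The members and lists were chosen with earlier results of these data known, and the BZIP9 division and its alternatives after its 10x values were seen. Wells share a plate, and per the paper's methods the plates of a gate came from a single collection of hypocotyls. The p-values therefore measure the spread between plates and not between plant pools. Gene names came from RefSeq for 98.1% of 38115 gene IDs.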

Additional observations from a re-analysis of the deposited data

How the results depend on the processing

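Alternatives chosen after seeing the data are named as such. The 10x counts of genes past 2-fold stayed within 475 to 696 higher and 1219 to 1910 lower. All 25 leading genes stayed higher except with a minimum of 2500 counts per nucleus, where 14 could be counted, all of them higher. Member shares in d14 and WT were 1.95% and 1.75% at 1200 counts per nucleus, 6.93% and 7.31% with 2 or more counts, and 2.80% and 2.78% with 4 or more. With members by thinned counts the list ratios were 3.08 for early phloem, 2.90 for PP1, 1.96 for root tip phloem, 0.15 for companion cell and 0.50 for xylem parenchyma. The 3 fullest clusters held 59.8% of members at resolution 2.0 and 75.7% of members by thinned counts.

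On the plates the counts of genes higher and lower in members (26 and 183) varied widely. They were 39 and 101 with RLE size factors, 12 and 23 in DESeq2, 10 and 283 with no filter, 8 and 27 with no replicate block, 5 and 44 on all hypocotyl plates only, 6 and 16 on cambium plates only, 769 and 617 with the deposited counts, 216 and 300 with counts thinned to 2000, 18 and 172 with a minimum of 2500 counts per nucleus, and 14 and 237 with a second draw chosen after seeing the data. The second draw kept 109 of the 209 calls and DESeq2 kept 34. The second draw had 4 members on each of all hypocotyl plates 1 and 3, under the planned minimum of 5, and these plates were kept. Leaving out 1 plate gave 10 to 22 higher and 95 to 150 lower, with the lowest of both without all hypocotyl plate 1. Without cambium plate 2 they were 11 and 108, without cambium plate 3 they were 15 and 150, and without all hypocotyl plate 2 they were 18 and 108. Of log2 changes past the test, FAD3 turned to −1.68 and HSFC1 to −0.24 with the second draw, and CYP83A1 to 0.029 with the deposited counts. Of changes that had not passed, FAF3 (−1.15) and BT4 (−0.80) turned with the second draw, UMAMIT30 (−0.57) on all hypocotyl plates only, AT3G57010 (−0.23), FAF3 (−0.83) and AT1G09750 (−0.050) on cambium plates only, AT1G06148 without cambium plate 2 (−0.077, and up to 0.81 without another plate) and BT4 without cambium plate 3 (−0.059, and up to 1.12). CYP96A12 ranged from −0.38 to 0.10 without 1 plate, turned without all hypocotyl plate 3, and was 0.078 on cambium plates only, 1.55 with deposited counts, 1.71 thinned to 2000 and 1.39 with the second draw, and H2BRFP to 0.62, 0.33 and 6.92e-04 under these last 3. The causes were not tested.

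For the BZIP9 division, with alternatives chosen after seeing the data, the counts (38 and 76) were 94 and 323 with no filter, 17 and 17 on all hypocotyl plates only, 53 and 68 on cambium plates only, 51 and 85 in DESeq2, 44 and 79 with no replicate block and 41 and 73 with RLE size factors. Leaving out 1 plate gave 25 to 53 and 57 to 80, the lowest without cambium plate 3. GSL04, UMAMIT31, GSL11, PDLP7, AT5G42720, RLP19, AT1G09750 and AT1G10640 passed under all 12 alternatives run for this division, and GH9B13 under all but all hypocotyl plates only.

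For the left-out genes on the plates, with deposited counts AT5G19740 was at 0.75 and NIK2 at 0.81, both past the test, and AT1G72210 turned to 0.61. Leaving out 1 plate gave −0.14 to 0.35 for NIK2, with −0.0076 without cambium plate 2 and −0.14 without all hypocotyl plate 3, −0.76 to 0.82 for BZIP9, 0.19 to 1.199 for AT2G35290, 0.31 to 0.54 for AT5G19740 and −1.62 to −0.26 for AT1G72210. The difference in share by gate stayed at 0.418 with plates paired by replicate number (exact permutation p = 0.25, the smallest possible) and was 0.075 to 0.86 without 1 plate. Same-numbered plates of the 2 gates correlated at 0.13, −0.034 and 0.068, so the numbers do not pair them.

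Depth limits the droplet values: 508335 counts from members, and 90606 from those with BZIP9, leave 0 counts compatible with up to 5.90 and 33.1 CPM.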
